A study of Arabidopsis thaliana with 12 samples.

Results

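Photosystem II and photosystem I are the pigment-protein complexes of the chloroplast thylakoid membrane that convert light into electron flow. Each has a core of structural subunits and an outer antenna of chlorophyll-binding proteins that collects light for it. Assembly factors bind the complexes while they are built or repaired and are not part of the finished complex. Green stems carry chloroplasts too, and leaf blades are the main photosynthetic organ.

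The genes described are 6 nuclear genes of these complexes: PSBW (AT2G30570), PSBY (AT1G67740), PSAN (AT5G64040), LHB1B2 (AT2G34420), PSB27 (AT1G03600) and LPA19 (AT1G05385). They were taken by name, as genes with a probe that the array's annotation gives to that gene alone. There are 6 among the 689 genes with such a probe, and each had 1 probe, so no choice between probes was needed. PSBW, PSBY, PSAN and LHB1B2 encode subunits and antenna proteins, and PSB27 and LPA19 encode assembly factors. All 6 probes were above 0 in all 12 samples and all 6 could be tested.

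Wild-type Arabidopsis thaliana plants of ecotype Columbia 0 gave total RNA from leaf (6 samples) and stem (6 samples), which was measured on single-channel arrays of 3439 probes. Within a tissue the labels number the samples from 1 to 6. Plant age, organ position and growth condition are not in the labels, nor is a statement that each sample is a different plant. The p-values therefore measure only how these samples spread, and that spread may be technical.

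The deposited values are intensities on a scale that ends at 100, and 3 to 7 probes in each sample reached that end. Array medians of intensity lay between 0.104 and 0.154 in leaf and between 0.154 and 0.324 in stem, with 658 to 785 probes at 0 in leaf and 479 to 536 in stem. Samples with neighbouring numbers, meaning 1 with 2, 3 with 4 and 5 with 6, were more alike than other samples of the same tissue. Over 1870 probes their rank correlations were 0.86 to 0.89 in leaf and 0.97 to 0.98 in stem, against 0.68 to 0.81 and 0.82 to 0.90 between other numbers. Values within each pair of numbers are therefore given below. The tissue labels could not be checked against stem markers, because 0 of 15 listed xylem and lignin genes had a probe of their own. Of 8 listed leaf mesophyll genes 2 had one. PRK, the Calvin cycle enzyme phosphoribulokinase, differed by -0.10 ± 0.15 (log2, SE, limma adjusted p = 0.69), and with each array centred on its median it was called lower (-0.78, adjusted p = 0.017). SBPASE was above 0 in 1 sample of each tissue.

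In the fit of all 12 samples, PSBW was called higher in stem and LPA19 lower. That fit takes neighbouring numbers as separate samples. With neighbouring numbers averaged, 0 of the 6 genes were called higher and 0 lower, where 42 of 2891 tested probes were called. In quantile-normalized values PSBW was 3.08-fold higher in stem, with 2 of its 6 stem values at the end of the scale. LPA19 was 3.11-fold lower in these values, from a dim probe whose stem intensities were below the array medians. In the deposited values the differences were 1.54 for PSBW (log2, limma adjusted p = 0.014) and -0.83 for LPA19 (adjusted p = 0.084). In the fit of normalized values PSBY, PSAN, LHB1B2 and PSB27 did not pass the threshold, an adjusted p under 0.05 in limma over 2657 tested probes. Of the 6 genes 2 were called, where 24.2% of all tested probes were. Of the 6, 1 was called higher, where 14.1% of the probes were, and 1 was called lower, where 10.1% were. The median stem minus leaf difference of the 6 genes was 0.0054 (log2), against 0.13 over all tested probes. In bulk RNA, fewer cells of a type and less RNA per cell cannot be told apart, and this applies to every difference given here.

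**Figure D1:**
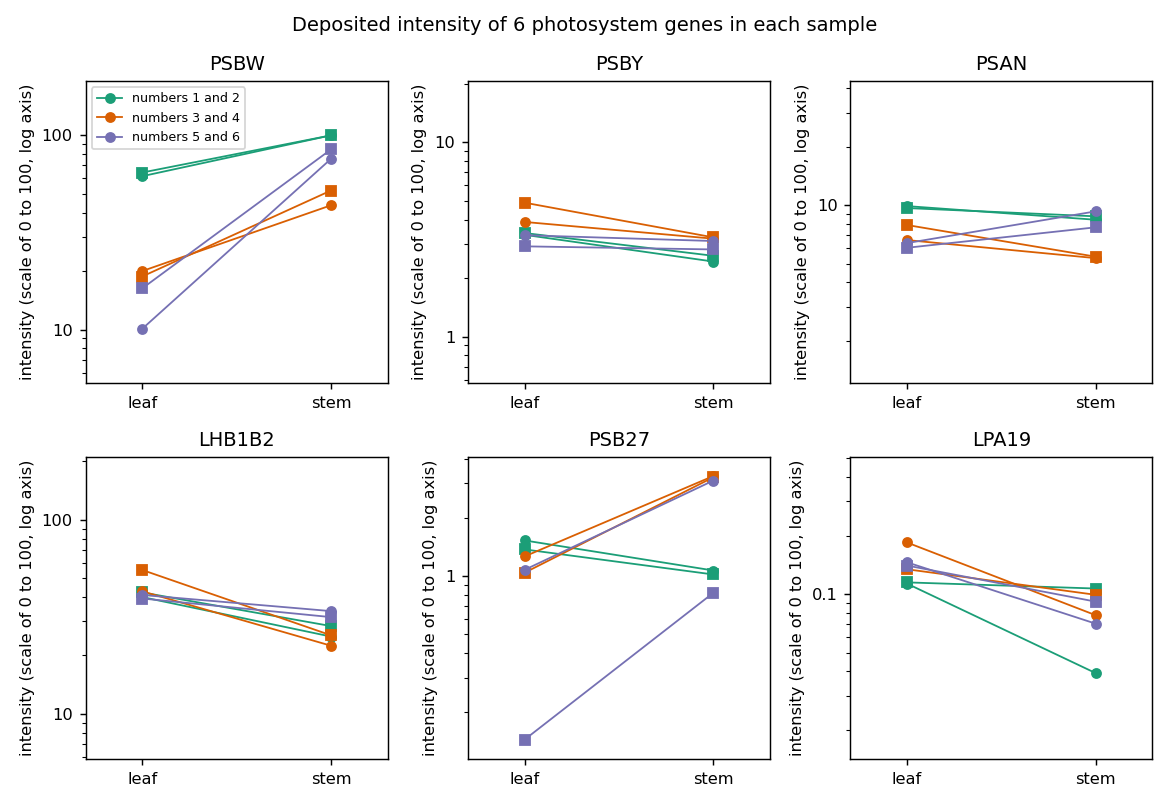
Deposited intensity (log axis) of the 6 genes in leaf and stem, each panel spanning the same number of folds; lines join samples of the same number, colours mark the pairs of numbers, circles are odd and squares even numbers. The lines of PSBW all go up and those of LPA19 all go down; PSB27 goes down in numbers 1 and 2 and up in the others.

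Among the structural subunits, PSBW encodes a small membrane-spanning protein of photosystem II that helps hold the core and its antenna together in larger assemblies. Its deposited intensity in leaf was 61.6 and 64.3 in samples 1 and 2 and 10.1 to 20.0 in samples 3 to 6. In stem it was at the end of the scale, 100, in samples 1 and 2, then 43.6 in sample 3, 52.0 in sample 4, 75.7 in sample 5 and 84.6 in sample 6. Leaf samples 1 and 2 were thus higher than stem samples 3 and 4, and the tissues overlapped, although stem was higher than leaf in 6 of 6 numbers. After quantile normalization the leaf mean was 4.54 ± 1.12 and the stem mean 6.16 ± 0.48 (log2, SD over 6 samples per tissue). The difference was 1.62 ± 0.42 (log2, SE, 95% interval 0.72 to 2.53, limma adjusted p = 0.013).

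In normalized values the PSBW difference was 0.69 (log2) within numbers 1 and 2, 1.63 within 3 and 4 and 2.55 within 5 and 6. In numbers 1 and 2 the stem values are at the end of the scale, so the deposited differences there, 0.70 and 0.64, are lower limits. In limma the difference exceeded that of numbers 1 and 2 by 0.94 (log2) in 3 and 4 and by 1.86 in 5 and 6. Both values may be too large, because the difference of the first pair is cut by the end of the scale. No conclusion is drawn from them. Tested in limma as a difference between pairs, the value in 5 and 6 exceeded that in 3 and 4 by 0.92 ± 0.22 (log2, SE, adjusted p = 0.029). The spread in this test is that between neighbours, 13.3% of 1870 probes passed it, and PSBW was the 1 gene of the 6 that did. The call of PSBW was lost with each array centred on its median (0.96, adjusted p = 0.19) and with values at the end of the scale set to missing (1.38, adjusted p = 0.055). It was also lost without number 5 or number 6 in both tissues (adjusted p = 0.055 and 0.058) and with neighbouring numbers averaged (adjusted p = 0.15).

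PSBY encodes a low-molecular-mass photosystem II protein. Its deposited intensity was lowest at 2.92, with a median of 3.38 and a highest value of 4.89, in leaf, and the same values in stem were 2.43, 2.96 and 3.24. Stem was lower than leaf in 6 of 6 numbers, although the tissues overlapped. Normalized, the leaf mean of PSBY was 1.76 ± 0.11 and its stem mean 1.63 ± 0.11 (log2, SD over 6 samples per tissue). That is a difference of -0.13 ± 0.13 (SE, 95% interval -0.41 to 0.15, adjusted p = 0.51). It was the steadiest of the 6 genes across numbers, at -0.16, -0.11 and -0.12 within the 3 pairs. With median centring PSBY was called lower (-0.89, adjusted p = 0.0044).

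PSAN encodes a lumenal subunit of photosystem I on the side where plastocyanin docks. Deposited intensities were 6.04 to 9.89 in leaf, with a median of 7.26, and 5.34 to 9.30 in stem, with a median of 8.05. Stem was lower than leaf in numbers 1 to 4 and higher in 5 and 6. Normalized means were 2.83 ± 0.29 for leaf and 2.97 ± 0.39 for stem (log2, SD over 6 samples per tissue), a difference of 0.14 ± 0.20 (SE, 95% interval -0.29 to 0.57, adjusted p = 0.65). The direction of PSAN turned in the deposited values (-0.056) and with median centring (-0.63), in both cases without passing the threshold.

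LHB1B2 encodes a chlorophyll a/b-binding protein of the major light-harvesting complex, the antenna that serves mainly photosystem II. It is one of several closely similar LHCB1 genes, and whether its probe also picks up their transcripts was not tested. Its deposited intensities ran from 39.3 to 55.2 in leaf, with a median of 41.6, and from 22.5 to 33.9 in stem, with a median of 26.9. Every stem sample was thus below every leaf sample in the deposited values. A lack of overlap in either direction was seen for 20.4% of the 1870 probes with all values above 0. Of the 6 genes 2, LHB1B2 and LPA19, had it, both lower in stem. The share of probes lower in stem without overlap was not counted. Quantile normalization brought the leaf mean to 5.30 ± 0.34 and the stem mean to 5.09 ± 0.11 (log2, SD over 6 samples per tissue), with overlap. The difference was then -0.21 ± 0.16 (SE, 95% interval -0.55 to 0.14, adjusted p = 0.38). Without normalization LHB1B2 was called lower (-0.65, adjusted p = 0.0030), as it was after median centring (-1.22, adjusted p = 0.0040). Within numbers 1 and 2 it turned to 0.046.

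Of the assembly factors, PSB27 encodes a thylakoid lumen protein that binds photosystem II intermediates before the oxygen-evolving cluster is in place. In leaf its deposited intensity was 1.04 to 1.52 in samples 1 to 5 and 0.144 in sample 6. In stem it was 1.07 and 1.02 in samples 1 and 2, between 3.10 and 3.27 in samples 3 to 5, and 0.820 in sample 6. Stem was therefore lower than leaf in numbers 1 and 2 and higher in numbers 3 to 6. Over all samples PSB27 differed by 0.96 ± 0.51 (log2, SE, 95% interval -0.14 to 2.05, adjusted p = 0.19). Its normalized leaf mean was -0.09 ± 1.09 and its stem mean 0.86 ± 0.97 (log2, SD over 6 samples per tissue). Within pairs it differed by -0.42 (adjusted p = 0.040) in numbers 1 and 2, by 1.73 (adjusted p = 0.0020) in 3 and 4 and by 1.56 (adjusted p = 0.34) in 5 and 6. The spread in these pair fits is only that between neighbours, which may be technical. In the same order they called 453 of 2367, 880 of 2327 and 930 of 2450 probes. The difference between the first pair and the second was 2.15 ± 1.14 (log2, SE, adjusted p = 0.20), which did not pass, as 25.9% of 1870 probes did.

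Number 6 was low for PSB27 in both tissues. In deposited intensity leaf sample 5 was 7.49-fold above leaf sample 6, and stem sample 5 was 3.79-fold above stem sample 6. The values that follow are normalized. Over all 1870 probes with 12 values, the median absolute difference between samples 5 and 6 was 0.31 (log2) in leaf and 0.14 in stem. For PSB27 it was -2.63 and -2.12 (log2, 6 minus 5). With these values of PSB27 as limits, 25 of the 1870 probes were as low in leaf, 4 in stem and 2 in both. PSB27 is included in each count. The limits come from PSB27 itself, so these counts test nothing. Without leaf sample 6 alone PSB27 differed by 0.53 (95% interval -0.34 to 1.39, limma adjusted p = 0.38), and without number 6 in both tissues by 0.78 (95% interval 0.02 to 1.55, limma adjusted p = 0.14).

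LPA19, named for low photosystem II accumulation, encodes a lumenal protein related to Psb27 that takes part in the maturation of a photosystem II reaction-centre protein. Its probe was the dimmest of the 6. Its deposited intensities lay between 0.113 and 0.184 in leaf, with a median of 0.137, and between 0.0391 and 0.107 in stem, with a median of 0.0846. No stem sample reached the lowest leaf sample, and stem was lower in 6 of 6 numbers. All stem values of LPA19 were below the stem array medians, which ran from 0.154 to 0.324. How far such dim values stand above background is not known here, so the size of the difference is uncertain. The normalized leaf mean was -2.55 ± 0.31 and the stem mean -4.19 ± 0.74 (log2, SD over 6 samples per tissue), a difference of -1.64 ± 0.38 (SE, 95% interval -2.45 to -0.83, adjusted p = 0.0071). LPA19 was the 1 gene of the 6 with no overlap of normalized values, which 16.4% of the 1870 probes had in either direction.

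Within pairs LPA19 differed by -0.95 (log2, adjusted p = 0.32) in numbers 1 and 2, -2.22 (adjusted p = 0.025) in 3 and 4 and -1.75 (adjusted p = 0.020) in 5 and 6. The spread in these fits is again only that between neighbours. They called 880 of 2327 probes in 3 and 4 and 930 of 2450 in 5 and 6. In the stem samples numbers 1 and 2 lay apart by 1.39 (log2), against a median of 0.18 over all probes for that pair. The direction of LPA19 was the same in every setting tried, while its size depended on the scaling. It was -0.83 (adjusted p = 0.084) in the deposited values and -2.99 (adjusted p = 0.043) with zeros of other probes set to a floor before normalization, and with neighbouring numbers averaged its adjusted p was 0.15.

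**Figure D2:**
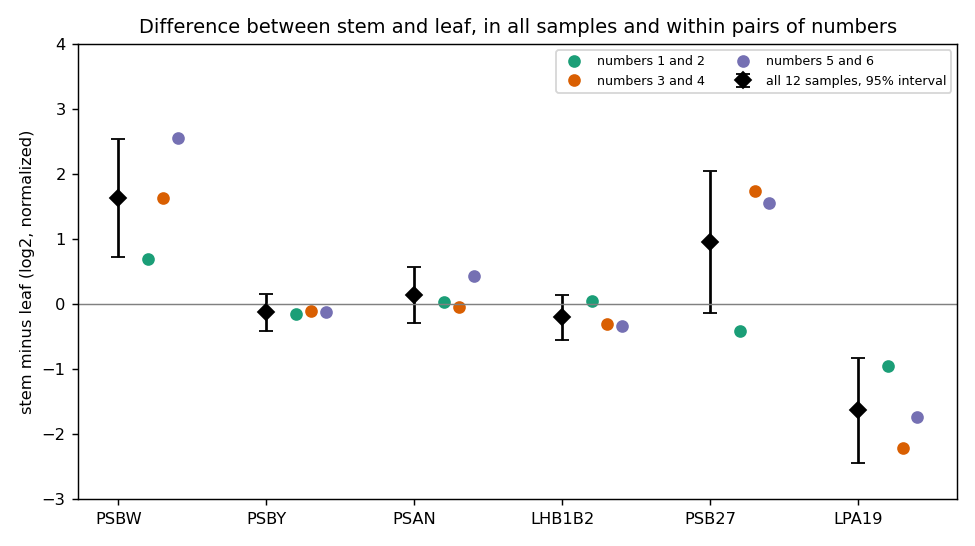
Stem minus leaf difference (log2, normalized values) of the 6 genes; diamonds with bars are the estimates over all 12 samples with 95% intervals, and coloured points are the differences within each pair of numbers. The interval lies above 0 for PSBW (0.72 to 2.53) and below 0 for LPA19 (-2.45 to -0.83), the point of PSBW for numbers 1 and 2 uses stem values at the end of the scale, and the points of PSB27 lie on both sides of 0.

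The rank of a probe among the 3439 of its own array does not depend on the scale of that array. Probe brightness also depends on the probe, so these ranks do not order the transcripts of different genes. The PSBW probe ranked 10 to 44 in leaf, where 1 is the brightest. In stem it ranked 8 to 14 in samples 3 to 6, and in samples 1 and 2 it was among the 4 probes tied at the end of the scale. LHB1B2 ranked 11 to 18 in leaf and 16 to 20 in stem. PSAN ranked 49 to 69 in leaf and 46 to 76 in stem.

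PSBY ranked 92 to 112 in leaf and 114 to 134 in stem, so its ranks did not overlap between the tissues although its intensities did. PSB27 ranked 206 to 363 in leaf samples 1 to 5 and 1453 in leaf sample 6, against 115 to 503 in stem. LPA19 ranked 1403 to 1822 in leaf and 2060 to 2771 in stem, again without overlap. No overlap of ranks was thus found for 2 of the 6 genes, PSBY and LPA19, and in either direction for 17.1% of the 1870 probes. In limma on percentile ranks, LPA19 was lower in stem by -26.2 percentile points (adjusted p = 0.0024). PSBY differed by -0.50 points (adjusted p = 0.36) and PSBW by 0.52 points (adjusted p = 0.23), neither past the threshold.

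**Figure D3:**
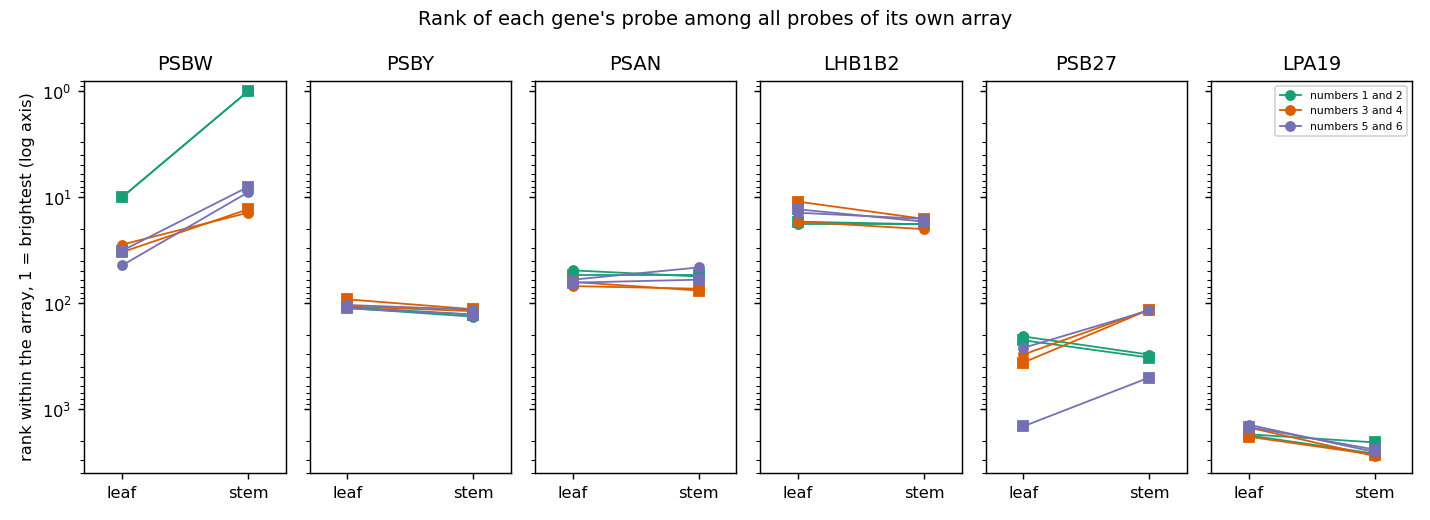
Rank of each gene's probe within its own array (log axis, 1 is the brightest of 3439), in leaf and stem; lines join samples of the same number and colours mark the pairs of numbers. LPA19 and PSBY are lower in rank in every stem sample than in every leaf sample, and PSB27 in leaf sample 6 stands at 1453; PSBW at 1 in stem is a tie at the end of the scale.

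The subunit and antenna genes were set against the assembly genes by ratios within a sample, which one scale factor per array cannot change. The mean log2 intensity of PSBW, PSBY, PSAN and LHB1B2 minus that of PSB27 and LPA19 was 5.25 ± 0.58 for leaf and 5.28 ± 0.72 for stem (SD over 6 samples per tissue). The stem minus leaf difference of this value was 0.04, with numbers on both sides of 0, from -0.79 in number 4 to 0.86 in number 1. PSBW enters it and was at the end of the scale in stem samples 1 and 2. The stem mean, the difference of 0.04 and the values of numbers 1 (0.86) and 2 (0.15) are therefore lower limits. These averages cover members that differed in direction, such as PSBW and LHB1B2 or PSB27 and LPA19.

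Of the 15 ratios between 2 of the 6 genes, 2 did not overlap between the tissues, against 14.6% of all pairs of the 1870 probes. They were PSBW over LHB1B2 and PSBW over PSAN. The log2 ratio of PSBW to LHB1B2 ran from -2.02 to 0.62 over leaf samples and from 0.96 upwards over stem samples. It was higher in stem in every number, by 2.06 to 3.18 in numbers 3 to 6 and by at least 1.38 and 1.21 in numbers 1 and 2, where PSBW in stem was at the end of the scale. That of PSBW to PSAN ran from 0.66 to 2.73 over leaf samples and from 3.02 upwards over stem samples. Both ranges have their highest stem values in numbers 1 and 2, as lower limits, so no upper end is given. The ratio of PSB27 to LPA19 averaged 2.66 ± 1.35 for leaf and 4.51 ± 1.04 for stem (log2, SD over 6 samples per tissue). It overlapped between the tissues, and in number 2 it was lower in stem, by -0.32. The count of 2 among 15 is near the share over all pairs of probes, so nothing is read from it. A ratio also does not show which of its members changed.

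**Figure D4:**
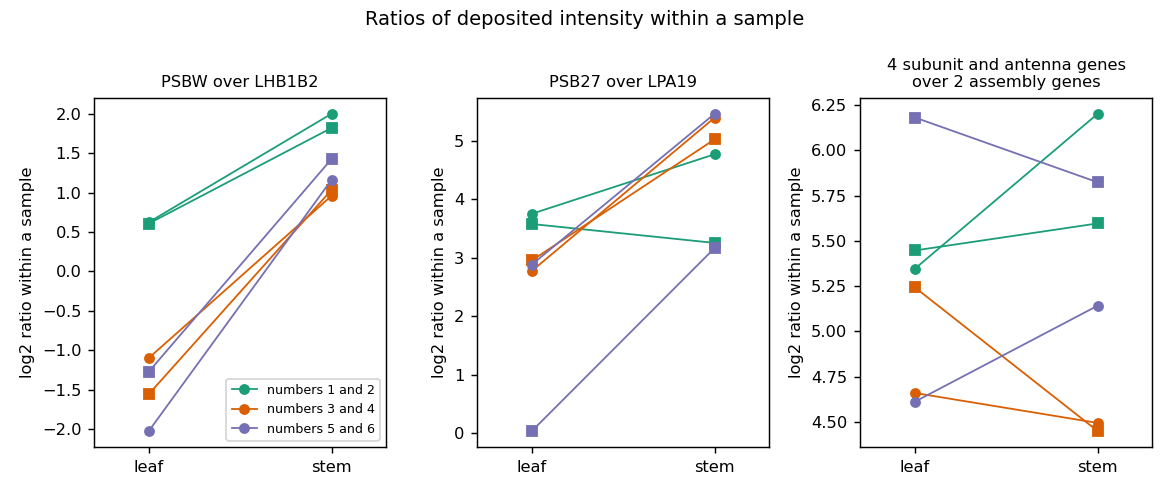
Log2 ratio of deposited intensity within each sample for PSBW over LHB1B2, PSB27 over LPA19 and the mean of the 4 subunit and antenna genes over the mean of the 2 assembly genes; lines join samples of the same number. PSBW over LHB1B2 lies at 0.62 or below in leaf and at 0.96 or above in stem, and the grouped ratio goes both ways; stem points of numbers 1 and 2 that include PSBW are lower limits.

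How many of the 6 genes were called, and which, depended on the scaling. In the deposited values 1 was called higher (PSBW) and 1 lower (LHB1B2), where 25.4% and 6.02% of all tested probes were. With median centring 0 were called higher and 3 lower (PSBY, LHB1B2 and LPA19), where 9.67% and 11.9% were. Over all tested probes the deposited values had a median difference of 0.62 (log2). Relative to that median the deposited differences were 0.91 for PSBW, -0.94 for PSBY, -0.68 for PSAN, -1.27 for LHB1B2, 0.39 for PSB27 and -1.46 for LPA19. Relative to the median of the normalized values they were 1.496, -0.26, 0.01, -0.33, 0.83 and -1.77 in the same order. PSAN was the 1 gene whose direction differed between these sets.

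**Figure D5:**
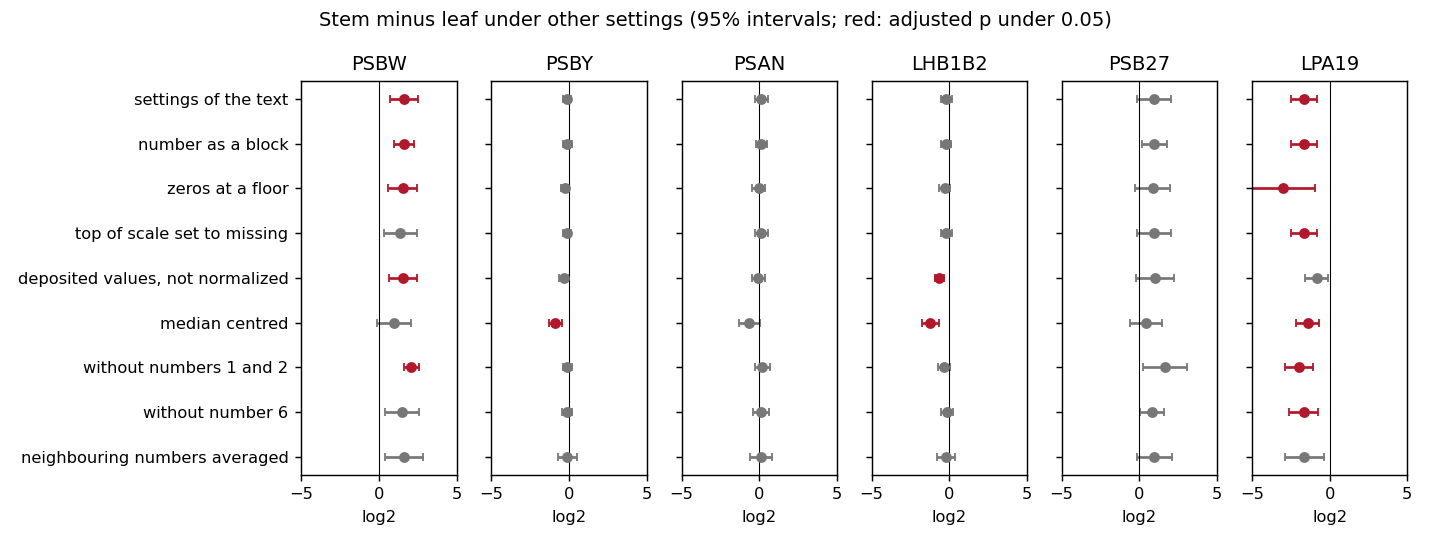
Stem minus leaf difference (log2) of the 6 genes with 95% intervals under 9 settings, red where the adjusted p was under 0.05. PSBW is red in 5 settings and LPA19 in 7, while LHB1B2 is red in the deposited and the median-centred values and PSBY in the median-centred values.

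The correlations between the 6 genes from sample to sample had both signs. They were not set against those of other pairs of probes. Over the 12 samples, which share tissues and pairs of numbers and hold 2 PSBW values at the end of the scale, Pearson's r of normalized values was 0.70 between PSBY and LHB1B2 and 0.62 between PSBW and PSAN. PSBW ran opposite to PSBY (r = -0.71) and to LHB1B2 (r = -0.68), and PSB27 opposite to LPA19 (r = -0.63). With each tissue's mean removed these values were 0.62, 0.68, -0.55, -0.62 and -0.53. The pairs named are those with the largest absolute r among the 15. Other pairs changed more when the tissue means were removed. PSBW with LPA19 went from -0.57 to 0.09 and PSBY with PSB27 from 0.10 to 0.45.

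Among 353 other genes with a probe of their own and 12 values above 0, those most like PSBW were AT2G35390 (r = 0.98) and AT4G13550 (r = 0.97). Those most like LPA19 were THIC (AT2G29630), of thiamine synthesis, at r = 0.93 and PRA1.B3 (AT5G05380), also at 0.93. For PSB27 they were AT3G50350 (0.85) and AT4G17070 (0.83), for PSAN AT4G27700 (0.81) and SIS (AT5G02020, 0.79), and for LHB1B2 AT5G49590 (0.80) and AT2G21960 (0.76). PSBY had the lowest such values, with AT1G12800 (0.77) and AT5G34870 (0.71). These are the highest of 353 values each, over 12 samples that are not independent. With each tissue's mean removed r was 0.76 for THIC and 0.73 for PRA1.B3. Both were themselves called lower in stem (-1.54 and -1.39, log2, limma adjusted p = 5.0e-04 and 0.0032). For the genes most like PSBW r was then 0.97 and 0.94.

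Of the rest of the pathway little could be seen. Of 96 listed genes for photosystem subunits, antenna, electron carriers and assembly or repair, 8 had a probe of their own, and 7 others appeared only on probes shared by several genes. The 8 were the 6 genes above, AT1G22700 and AT1G54500, both listed with assembly and repair and named by locus alone in the array's table. Of these 8, 2 were called higher and 2 lower, where 14.1% and 10.1% of all tested probes were. With 8 genes, 2 of them called above already, nothing is read from these counts. AT1G22700 was at 0 to 0.203 in leaf, with a median of 0.111, and at 0.456 to 1.09 in stem, with a median of 0.549, so the tissues did not overlap. Its difference was 1.90 ± 0.30 (log2, SE, adjusted p = 7.6e-04), fitted on 5 leaf and 6 stem values because 1 leaf sample was at 0, and 3.48 (adjusted p = 0.14) with that zero at a floor. With neighbouring numbers averaged its adjusted p was 0.064. AT1G54500 was at 0.613 to 0.879 in leaf and at 0.444 to 0.688 in stem. It differed by -0.70 ± 0.19 (adjusted p = 0.017), or -0.37 (adjusted p = 0.16) in the deposited values. Its call was also lost with neighbouring numbers averaged (adjusted p = 0.27), in numbers 1 and 2 alone (0.070) and without number 4 or 6 in both tissues (0.054 and 0.050).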

How the data were processed

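The authors deposited 1 table of linear array intensity for 3439 probes and 12 samples. How background was corrected, how arrays were scaled and what an exact 0 means is not given in the sources used here. Precision is limited by the number of arrays. Intensities were converted to log2 with zeros missing and quantile normalized, and probes with at least 4 values above 0 in each tissue were tested (2657; 782 set aside). The tissues were compared by limma 3.58.1 (R 4.3.3, statmod 1.5.0; lmFit, eBayes with trend and robust variance, two-sided), with Benjamini-Hochberg adjustment over all tested probes. Differences are stem minus leaf. Figures used matplotlib 3.10.9.

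Probes were named from the platform annotation, whose gene IDs were matched to RefSeq loci (assembly TAIR10.1, names alone). It gives 1 gene for 692 probes, several for 870 and none for 1877; 2 single genes had no locus match. The 6 genes, the pathway and marker lists and the settings were chosen with earlier results of these data known. The named genes were the 6, the 2 most like each by Pearson's r, and listed pathway genes with a probe of their own. Of 5 flower organ and 2 root hair markers, 0 had one.

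Deviations from the tissue mean of same-numbered leaf and stem samples correlated at 0.17 to 0.26 over 1870 probes, each above 0.1, against -0.17 to 0.15 for different numbers. The highest value for different numbers was above 0.1 too, so the data give weak support for pairing leaf and stem samples by number. The labels share the number, but the fit behind the main results did not use this pairing. A block for the number was an alternative. With the block the 95% interval narrowed for PSBW (0.99 to 2.26, log2) and PSB27 (0.16 to 1.75, limma adjusted p = 0.075). It also narrowed for PSAN and LHB1B2, and it widened for PSBY and LPA19. In 10 simulated tables of 1870 probes, 200 of them changed, the stem against leaf fit found 41.0% of the 2-fold changes. It found 84.7% of the 4-fold ones, and 5.70% of its calls were false. The simulated samples were drawn independently, without the likeness of neighbouring numbers and without an end of the scale. These rates therefore do not carry over to the real samples.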

Additional observations from a re-analysis of the deposited data

Results flagged for a closer look

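PSB27 in leaf sample 6 stood far from the other leaf samples of the same gene, by the gap to its nearest neighbour, at -2.24 (log2, normalized) against -0.10 to 0.70 in the other 5. Stem sample 6 was the lowest stem sample for PSB27 too, at -0.43. Of 12 groups of 6 samples looked at in this way, this was the 1 set apart. With independent samples chance sets apart about 1 in 20 groups, so 1 among 12 is not unusual. The samples here are not independent, and the rate for them is not known.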

How the results depend on the processing

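The count of probes past the threshold was 643 (374 higher, 269 lower) and 708 with the number as a replicate block, which changed no call of the 6 genes. It was 42 with neighbouring numbers averaged, and ranged from 511 to 716 without 1 sample and from 375 to 655 without 1 number in both tissues. Leaving out numbers 3, 4, 5 or 6 gave 422, 405, 375 and 392 probes. The share of calls higher in stem was 80.8% in deposited values and 44.9% with median centring, against 58.2%. PSBW (1.62) was 0.96 with median centring, 0.52 percentile points by rank, 1.38 with the top of the scale missing and 1.62 with neighbours averaged, all short of the threshold. It ranged from 1.40 to 1.91 without 1 sample, keeping its call, and from 1.40 to 1.81 without 1 number, losing it without number 5 (1.40) or 6 (1.48). LPA19 (-1.64) lost its call in deposited values (-0.83), with neighbours averaged (-1.64) and in numbers 1 and 2 alone (-0.95), and ranged from -1.91 to -1.42 without 1 sample or number. PSBY gained a call with median centring (-0.89). LHB1B2 gained one in deposited values (-0.65), with median centring (-1.22) and in numbers 5 and 6 alone (-0.35), and turned to 0.046 in numbers 1 and 2. PSAN (0.14) turned to -0.056 in deposited values, -0.63 with median centring, -0.029 percentile points by rank, -0.021 with zeros at a floor and -0.045 in numbers 3 and 4, all uncalled. PSB27 (0.96) turned to -0.42 in numbers 1 and 2 and gained a call in 3 and 4 (1.73). Of all probes, 880 of 2327 were called in numbers 3 and 4 alone and 930 of 2450 in 5 and 6 alone. Without 1 sample PSB27 ranged from 0.53 (leaf sample 6) to 1.21. PRK gained a call with median centring (-0.78) and turned to 0.13 in numbers 3 and 4. The cause was not tested for these changes, except that averages and pairs use fewer samples. Leaving out each number was chosen after seeing the data. A next brightest probe could not be tried, as each of the 6 genes has 1. How far dim probes such as LPA19 stand above background is not known here.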
